A study of Mus musculus with 23 samples.

Results

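The desmosome genes described here are Dsp, Jup, Perp, Pkp1, Pkp2, Pkp3, Dsg2, Dsg3, Dsc2 and Dsc3, which encode the core proteins of the desmosome. They were taken by name from a table of 54347 genes, through Ensembl identifiers matched without their version, and all 10 were found. Desmosomes are the cell junctions that tie the keratin filaments of neighbouring epithelial cells together. Their desmoglein and desmocollin cadherins meet between the cells, the armadillo proteins plakoglobin and the plakophilins bind the cadherin tails, and desmoplakin links that plaque to keratin. In the enamel organ, the epithelium that makes tooth enamel, desmosomes hold the cell layers together, and Perp is known to be needed for normal enamel.

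RNA was sequenced from cells of the labial cervical loop, the epithelial fold at the growing end of the mouse lower incisor, at postnatal day 2. All mice carried GFP driven by the endogenous Sox2 promoter, and cells were sorted by fluorescence into a Sox2-positive and a Sox2-negative population, so the sort reads promoter activity and not a surface marker. Batches A and B were run on different days with different mice, and the table has 23 libraries. Batch A gave 6 libraries of each population, and batch B gave 7 Sox2-positive and 4 Sox2-negative ones. Nothing in the labels says whether libraries of 1 batch came from separate animals, so p-values measure the spread between libraries, which may be technical. Strain and sex were not among the labels used here.

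Library totals ran from 2305778 to 9541443 counts, with a median of 4831091, and the spread of a low gene is set by that depth. Levels are given as CPM, the counts scaled to a common library total with TMM factors, which balance the libraries on the bulk of their genes. Sox2 averaged 7.27 and 16.4 CPM in the Sox2-positive groups of batches A and B, and 0.0436 and 0.297 CPM in the Sox2-negative groups. The 13 epithelial markers on a fixed list summed to 5400.1 to 8559 CPM in Sox2-positive and 204 to 552 CPM in Sox2-negative libraries, and none of them was at 0 in a whole group. The 13 mesenchymal markers summed to 744 to 2166 CPM and 12725 to 16039.9 CPM in the same order. The 7 ameloblast markers, of the enamel-making epithelium, ran against the epithelial list, with Amtn at 0 in every group. They summed to 293 to 349 CPM in batch A and 9.80 to 17.3 CPM in batch B Sox2-positive libraries. Their Sox2-negative sums were 747 to 940 CPM and 596 to 712 CPM. Over both batches 4 of 5 tested were called lower in Sox2-positive cells and 1 higher. The 1 higher lost its call in 13 of the alternatives tried, and none was called higher in either batch alone. Libraries 1 and 2 of batch B Sox2-positive cells stood apart from the others in several desmosome genes. Those of batch B Sox2-negative cells did so in Dsp, Pkp1, Dsg2 and Dsc3, but not in Jup, Perp, Pkp3, Dsg3 or Dsc2. Results that rest on these libraries are also given without them.

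Dsp encodes desmoplakin, the plaque protein that carries the keratin link. It lies on chromosome 13 at 38151294 to 38198577 of mm10, on the plus strand. The RefSeq promoter set used here, on GRCm38.p6, had a match for 2 of the 10 genes, Dsp and Jup, and both are shown. These genes encode the plaque's shared linkers and rose 17.5-fold and 2.97-fold between the populations. The sequences run 5′ to 3′ on the gene's strand up to the base before the outermost RefSeq start, which for Jup lies outside the GENCODE M21 start given with its values. Capitals mark the GC box, GGGCGG or its reverse complement CCGCCC.
Dsp promoter, chr13:38151044-38151293, plus strand: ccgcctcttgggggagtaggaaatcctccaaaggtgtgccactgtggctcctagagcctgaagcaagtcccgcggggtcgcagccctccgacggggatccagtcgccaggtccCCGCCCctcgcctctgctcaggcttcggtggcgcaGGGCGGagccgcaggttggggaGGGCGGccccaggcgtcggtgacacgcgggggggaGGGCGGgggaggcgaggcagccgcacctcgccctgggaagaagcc
Jup promoter, chr11:100397840-100398040, minus strand: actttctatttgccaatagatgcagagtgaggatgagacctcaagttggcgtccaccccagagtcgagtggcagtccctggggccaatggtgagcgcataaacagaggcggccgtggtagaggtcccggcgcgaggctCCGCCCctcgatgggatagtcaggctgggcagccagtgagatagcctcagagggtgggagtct
The Dsp stretch is 72.4% G and C and the Jup stretch 60.2%. Dsp held 4 GC boxes, starting 137, 102, 80 and 45 bases before that start, and 32.7% of 32851 RefSeq promoters held at least 1 in a window of that length. Jup held 1, starting 63 bases before its RefSeq start, against 24.8% of promoters in its shorter window. The E-box letters CACCTG and the Grainyhead-like letters AACCGGTT were in neither stretch on either strand, and 17.2% and 0.116% of promoters held them in the window of the Dsp length. These matches only describe the letters.

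All 10 desmosome genes were higher in Sox2-positive than in Sox2-negative cells. In an edgeR fit over both batches with batch as a term, 10 of 10 passed an adjusted p of 0.05 in that direction, against 24.9% of the 17190 genes tested. Their median log2 fold change was 3.69, and that of all genes was -0.12. In batch A alone 9 of 9 tested genes rose, against 19.3% of genes, since Dsg3 had too few counts to be tested there, and in batch B 10 of 10 rose, against 27.1%. The Sox2-positive and Sox2-negative libraries did not overlap for any of the 10 genes in either batch, against 12.4% of genes that were higher without overlap in batch A and 17.4% in batch B. In sorted bulk cells, fewer cells that express a gene and less RNA per cell cannot be told apart.

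**Figure D1:**
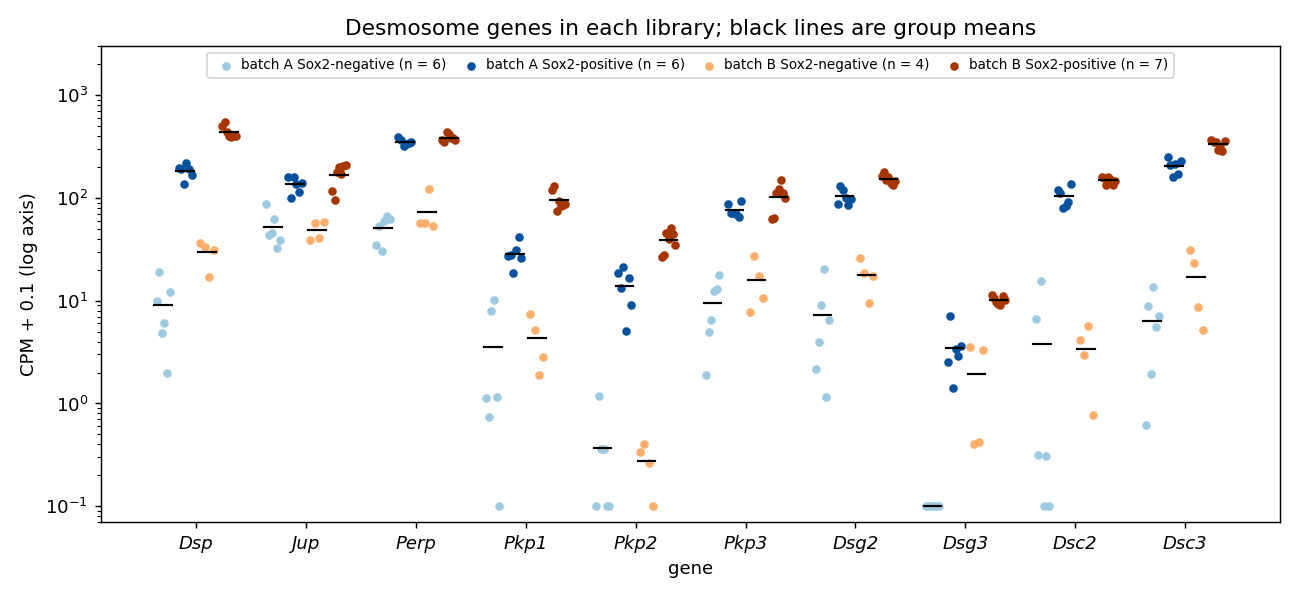
Level of each of the 10 desmosome genes in every library, as CPM with 0.1 added on a log axis, by batch and population; each point is 1 library and black lines are group means. In each batch every Sox2-positive library lies above every Sox2-negative library, and Dsg3 sits at the bottom of the axis, with 0 counts, in all 6 batch A Sox2-negative libraries.

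Dsp had a low, median and high of 137, 192 and 219.9 CPM in batch A Sox2-positive libraries and 391, 401.5 and 546 CPM in batch B. Among Sox2-negative libraries the batch A values were 1.89, 7.92 and 19.0 CPM, and those of batch B 36.4, 33.0, 17.0 and 30.9 CPM. The populations were far apart, and the 2 Sox2-positive groups did not overlap each other either. Over both batches Dsp was 17.5-fold higher in Sox2-positive cells, a log2 fold change of 4.13 (SE 0.24, adjusted p 4.77e-14). Gm10129, annotated on the opposite strand over Dsp, had 2 and 7 counts in all Sox2-positive libraries of batches A and B and 0 in the others.

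Jup encodes plakoglobin, which binds cadherin tails in desmosomes and also takes part in adherens junctions. It lies on chromosome 11 at 100368958 to 100397763, on the minus strand. Its low, median and high were 100.04, 138 and 161 CPM in batch A Sox2-positive libraries and 94.9, 178 and 209 CPM in batch B, where libraries 1 and 2 had 115.5 and 94.9 CPM and the other 5 at least 170.4 CPM. In Sox2-negative cells it had 32.1, 44.6 and 87.4 CPM in batch A, and 38.5, 56.2, 40.8 and 58.6 CPM in batch B. Sox2-negative cells thus kept a clear Jup level, and the rise was 2.97-fold, the smallest of the 10 genes (log2 1.57, SE 0.17, adjusted p 1.81e-08).

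Perp encodes a tetraspan membrane protein of desmosomes and is a known target of p63 and p53. It lies on chromosome 10 at 18845020 to 18857073, on the plus strand. Sox2-positive libraries had a low, median and high of 322, 344 and 388 CPM in batch A and 349, 379 and 435 CPM in batch B. The Sox2-negative libraries had 30.6, 56.7 and 66.0 CPM in batch A, and 57.2, 56.9, 121 and 52.9 CPM in batch B, where library 3 was high. The rise was 6.08-fold (log2 2.61, SE 0.15, adjusted p 4.13e-14), and the batches' Sox2-positive ranges overlapped.

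The plakophilins are armadillo proteins that cluster cadherins and desmoplakin; Pkp1 is known from the upper layers of stratified epithelia, Pkp2 from simple epithelia and heart, and Pkp3 from most epithelia. Pkp1 (chromosome 1, 135871395 to 135919207, minus strand) had 18.4, 27.2 and 41.7 CPM in batch A Sox2-positive libraries and 74.4, 87.3 and 129.7 CPM in batch B, as low, median and high. Its Sox2-negative values were 0, 1.04 and 9.94 CPM in batch A, and 7.25, 5.10, 1.79 and 2.72 CPM in batch B. Pkp1 rose 13.4-fold (log2 3.75, SE 0.45, adjusted p 8.27e-08). Gm36938, on the same strand over Pkp1, averaged at most 1.28 CPM in any group.

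Pkp2 (chromosome 16, 16213318 to 16272712, plus strand) had 4.98, 14.9 and 21.1 CPM in batch A Sox2-positive libraries and 26.6, 39.3 and 50.9 CPM in batch B, as low, median and high. The Sox2-negative libraries were near nothing, with a mean of 0.266 ± 0.414 CPM (SD, n = 6) in batch A and 0.175 ± 0.130 CPM (SD, n = 4) in batch B, which is 7 and 5 counts over all libraries. The fitted log2 fold change, 6.51 (SE 0.52, adjusted p 3.69e-11), was the largest of the 10 and rests on those few counts. Pkp3 (chromosome 7, 141078218 to 141090510, plus strand) had 65.0, 70.5 and 94.0 CPM in batch A Sox2-positive libraries and 61.5, 111 and 150.3 CPM in batch B. In Sox2-negative libraries Pkp3 had 1.81, 9.31 and 17.7 CPM in batch A, and 7.61, 27.0, 17.3 and 10.5 CPM in batch B. It rose 7.36-fold (log2 2.88, SE 0.28, adjusted p 1.33e-09).

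Desmogleins and desmocollins form the adhesive contact between cells; Dsg2 and Dsc2 are known from many epithelia and Dsg3 and Dsc3 from the basal layers of stratified ones. All 4 lie on chromosome 18, Dsc3 at 19960930 to 20002351 and Dsc2 at 20030633 to 20059554 on the minus strand, and Dsg3 at 20510274 to 20547459 and Dsg2 at 20558074 to 20604521 on the plus strand. Dsg2 had 84.5, 98.5 and 129.8 CPM in batch A Sox2-positive libraries and 132, 149.7 and 179.8 CPM in batch B, as low, median and high. Its Sox2-negative values were 1.05, 5.15 and 20.1 CPM in batch A, and 25.9, 18.3, 9.46 and 17.2 CPM in batch B. Dsg2 rose 11.2-fold (log2 3.49, SE 0.30, adjusted p 2.03e-10). Gm16090, antisense to Dsg2, averaged at most 0.433 CPM, and the counting is not stated to use strand.

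Dsg3 was the lowest of the 10 genes in Sox2-positive cells, with 1.32, 3.07 and 6.99 CPM in batch A and 8.97, 9.94 and 11.3 CPM in batch B. Sox2-negative cells of batch A had 0 counts in all 6 libraries, and those of batch B had 3.45, 0.300, 0.326 and 3.23 CPM. In batch A the level was at least 4.24-fold higher in Sox2-positive cells, with 3 counts per library as the limit. An exact permutation test gave a two-sided, unadjusted p of 0.00217, the smallest possible for 6 libraries against 6. It only restates that the groups did not overlap. The batch B log2 fold change was 2.51 (SE 0.59, adjusted p 0.00192).

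Dsc2 had 79.8, 102 and 137 CPM in batch A Sox2-positive libraries and 132, 153 and 161 CPM in batch B, as low, median and high. The Sox2-negative libraries had 0, 0.212 and 15.3 CPM in batch A, and 4.04, 2.85, 5.54 and 0.680 CPM in batch B. The rise was 35.3-fold (log2 5.14, SE 0.50, adjusted p 1.92e-09). Dsc3 had 159.5, 211 and 249 CPM in batch A Sox2-positive libraries and 288, 347 and 368 CPM in batch B. In Sox2-negative libraries Dsc3 had 0.517, 6.22 and 13.6 CPM in batch A, and 31.3, 23.1, 8.64 and 5.10 CPM in batch B, with libraries 1 and 2 high. It rose 25.0-fold (log2 4.64, SE 0.32, adjusted p 2.61e-12).

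**Figure D2:**
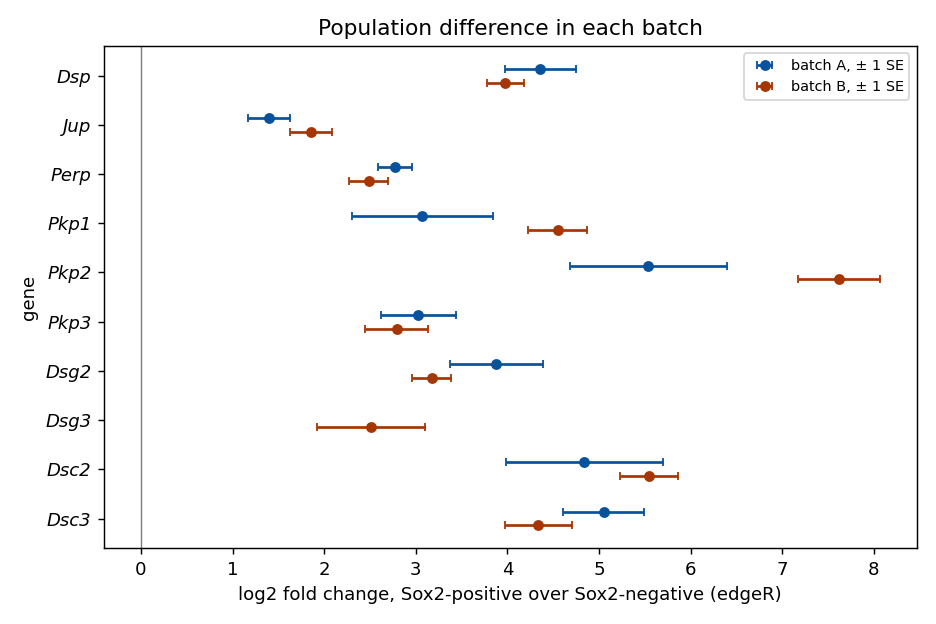
Log2 fold change of Sox2-positive over Sox2-negative cells for each desmosome gene in batch A (blue) and batch B (red); points are edgeR estimates and bars are 1 SE to each side. Every estimate lies above 0, from Jup at 1.40 in batch A to Pkp2 at 7.62 in batch B, and Dsg3 has none in batch A.

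Levels of different genes were compared as CPM per kilobase of merged exons, a scale on which gene length does not count. In Sox2-positive cells Perp stood first, at a mean of 178 CPM per kilobase in batch A and 197 in batch B, above the range of every other member. Dsc3 came next, at 38.0 and 61.1, and in batch A its range stood apart from Pkp3 at 21.0. Pkp3, Jup, Dsc2 and Dsp followed within overlapping ranges in batch A. In batch B Dsp followed Dsc3 at 45.6, with a range overlapping those of Dsc3 and Pkp3. Pkp2, at 2.59 and 7.17, and Dsg3, at 0.487 and 1.44, were last in both batches. In Sox2-negative cells Perp led at 26.2 in batch A and 36.9 in batch B, and Jup followed at 8.01 and 7.54.

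In each family the same paralog had the highest mean share in Sox2-positive cells of both batches, with the plakophilins taken as Pkp1, Pkp2 and Pkp3 only. Dsg2 held 80.4 ± 6.15% (SD, n = 6) of the summed desmoglein level per kilobase in batch A and 80.1 ± 2.86% (SD, n = 7) in batch B. Dsg1a came next with 11.99% and 11.2%, ahead of Dsg3 with 3.12% and 6.33%. Dsc3 held 66.0 ± 3.18% of the desmocollin level in batch A and 68.4 ± 2.66% in batch B, and Dsc2 the rest. Pkp3 held 71.6 ± 5.83% of the level of Pkp1, Pkp2 and Pkp3 in batch A and 51.0 ± 9.99% in batch B, and Pkp1 held 19.6 ± 5.56% and 36.04 ± 11.6%. Pkp4, left out of that sum, averaged 13.8 and 29.0 CPM per kilobase in these groups, beside 21.0 and 28.4 for Pkp3. With Pkp4 counted, Pkp3 would thus not lead in batch B.

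Between the batches, Sox2-positive cells of batch B had more Dsp, Pkp1 and Pkp2 than those of batch A. These 3 of 10 members were called higher, against 4.85% of genes, and 6 of 10 did not overlap, against 3.9%. The 6 were Dsp, Pkp1, Pkp2, Dsg2, Dsg3 and Dsc3. Dsp was 2.40-fold higher (log2 1.26, SE 0.25, adjusted p 0.00105), Pkp1 3.37-fold (log2 1.75, SE 0.47, adjusted p 0.0132) and Pkp2 2.76-fold (log2 1.47, SE 0.43, adjusted p 0.0244). Perp differed by a log2 value of 0.15 and Jup by 0.31, and neither was called. Epcam, a surface protein of epithelial cells, differed by -0.02 (SE 0.15, adjusted p 0.969), and on the epithelial list 2 of 13 markers were called higher, with a median of 0.55 beside 0.62 for the desmosome genes and 0.0 for all genes, and sums of 5400.1 to 5871 CPM in batch A and 5646 to 8559 CPM in batch B. Of 7 tested keratins 2 were called higher, with a median of 0.53.

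With limma-voom and sample quality weights, used together throughout, 7 were called, with Dsg2, Dsg3, Dsc2 and Dsc3 added. That setting also called more of all genes higher, 1687 of 17190 against 833 in the main fit. Without libraries 1 and 2 of both batch B groups, Dsp stayed called (log2 1.14, adjusted p 0.0132) and so did Pkp2 (1.62, adjusted p 0.0471), but Pkp1 did not (1.56, adjusted p 0.0879). Pkp2 also lost its call when any of 4 single Sox2-positive libraries was left out: 4 or 6 of batch A (adjusted p 0.0595 and 0.0570), or 3 or 5 of batch B (0.0503 and 0.0553). Other cell types moved with the batch in Sox2-positive cells. All 8 glial and neural crest markers were called lower in batch B, summing to 1153 to 1353 CPM in batch A and 72.4 to 103 CPM in batch B. Of 13 mesenchymal markers 6 were called lower, summing to 1562 to 2166 CPM and 744 to 864 CPM, with Twist1 at 0 in both batches. Of 8 muscle markers 4 were called higher, summing to 7.75 to 23.96 CPM and 279 to 499 CPM, with Actc1 and Myod1 at 0 in batch A. Of 5 tested ameloblast markers 4 were called lower, the list of 7 summing to 293 to 349 CPM and 9.80 to 17.3 CPM, with Amtn at 0 in both batches, Klk4 in batch A and Enam in batch B. The part of these lists in the desmosome differences was not tested.

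The desmosome genes were next set against Epcam in each library, a description chosen after the values were seen. As a percent of the Epcam CPM, Dsp averaged 23.5% in batch A Sox2-positive libraries and 57.7% in batch B, Pkp1 3.68% and 12.6%, and Dsc3 26.4% and 43.2%. Pkp2, Dsg2 and Dsg3 also stood apart between the batches, while Jup, Perp, Pkp3 and Dsc2 overlapped. The share of all genes that stand apart on this scale, between batches or populations, was not counted. Jup and Pkp3 no longer overlapped without libraries 1 and 2 of batch B. Those libraries were singled out from these same genes and held the lowest percents of both in that group, so leaving them out favoured a gap. Between the populations several members had a higher mean percent of Epcam in Sox2-negative cells, against the direction of their CPM. Jup averaged 17.4% and 21.8% of Epcam in Sox2-positive cells of batches A and B, and 146% and 101% in Sox2-negative cells. Perp averaged 44.9% and 50.3% against 157% and 147%. For Jup and Perp the populations did not overlap on this scale in either batch. Pkp3, at 9.79% and 13.3% against 29.2% and 32.2%, and Dsg2, at 13.3% and 19.9% against 15.9% and 38.3%, had higher means in Sox2-negative cells of both batches but overlapped. So did Dsp, by little, at 23.5% and 57.7% against 23.7% and 62.8%. The Sox2-negative percents rest on few Epcam counts, 91 to 241 per library in batch A and 299 to 346 in batch B.

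**Figure D3:**
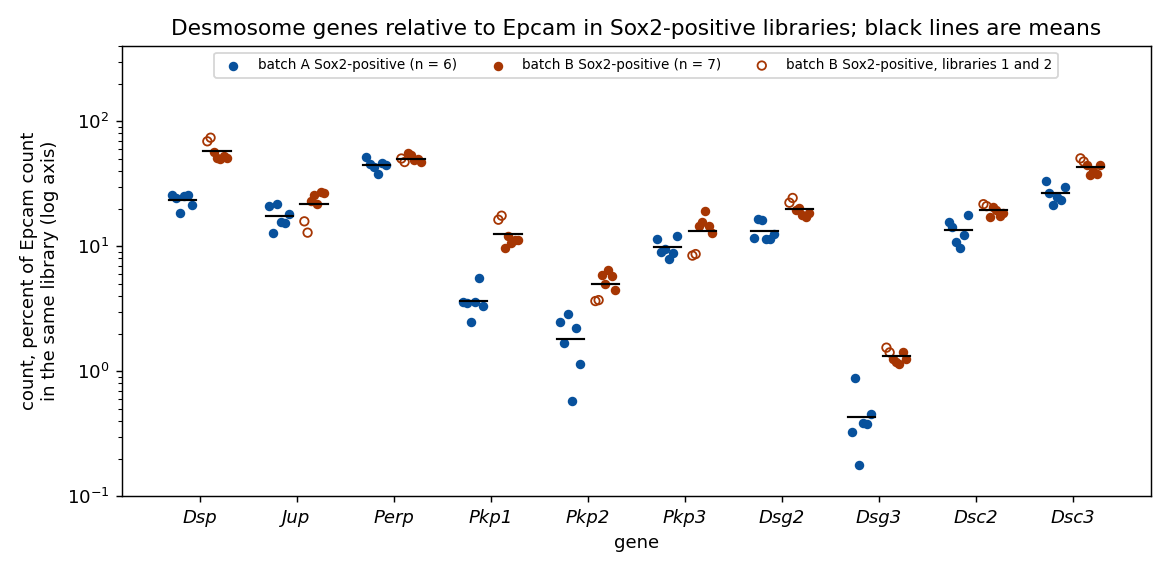
Each desmosome gene as a percent of the Epcam CPM of the same library, on a log axis, in the Sox2-positive libraries of both batches; each point is 1 library, open points are libraries 1 and 2 of batch B, and black lines are means. Dsp, Pkp1, Pkp2, Dsg2, Dsg3 and Dsc3 lie higher in batch B with no overlap. The share of all genes that do so on this scale was not counted.

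Ratios between paralogs, taken within each library after adding 0.5 to both counts, were compared by exact permutation tests, two-sided, with p-values adjusted over 20 comparisons, of which 5 passed. In Sox2-positive cells the log2 ratio of Pkp2 to Pkp3 was -1.39 ± 0.17 in batch B and -2.58 ± 0.81 in batch A (SD, n = 7 and 6, exact permutation adjusted p 0.0117). The log2 ratio of Pkp1 to Pkp3 was -0.06 ± 0.74 and -1.44 ± 0.49 (exact permutation adjusted p 0.0155), and was not called without libraries 1 and 2 of batch B (0.96, adjusted p 0.0577). Dsg2 to Dsg3 went from 5.03 ± 0.74 in batch A to 3.90 ± 0.17 in batch B (exact permutation adjusted p 0.0117), with as few as 7 Dsg3 counts in a library. Dsc2 to Dsc3 differed by -0.16 (adjusted p 0.343, exact permutation). The other 2 that passed were Pkp2 to Pkp3 and Pkp2 to Pkp1 between the batch B populations (exact permutation adjusted p 0.0242 for both); they rest on 5 Pkp2 counts over all 4 Sox2-negative libraries. Without any 1 of those libraries the differences stayed at 4.28 to 5.04 and 2.45 to 3.15, beside 4.604 and 2.77 with all 4, and the adjusted p was 0.0556 to 0.0667 (exact permutation), which 3 libraries against 7 limit.

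**Figure D4:**
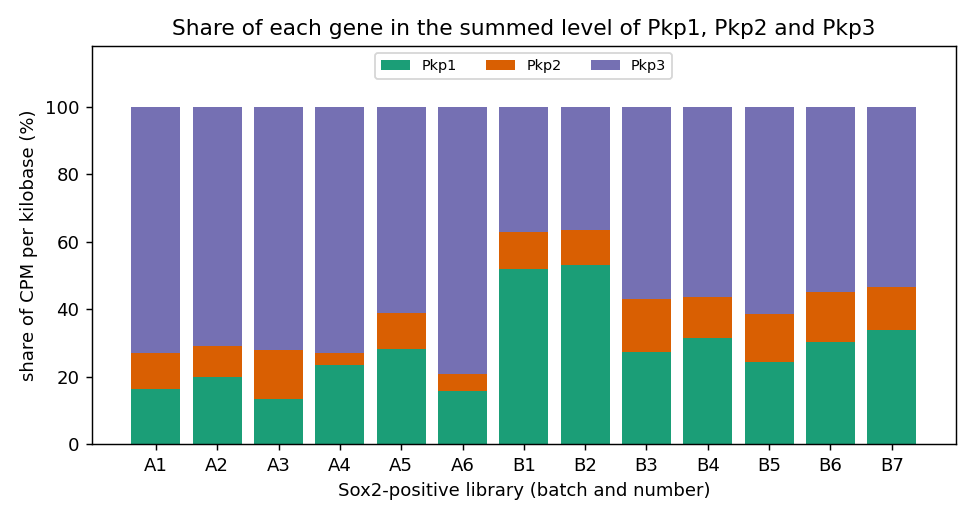
Share of Pkp1, Pkp2 and Pkp3 in their summed CPM per kilobase, in percent, in each Sox2-positive library of both batches, as stacked bars named by batch and library number. Pkp3 takes the most in every batch A library, and Pkp1 takes 51.9% and 53.1% in libraries 1 and 2 of batch B.

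In Sox2-negative cells, 4 of 10 members were called higher in batch B than in batch A, against 5.85% of genes, and Dsg3 alone did not overlap, against 4.56%. Dsp differed by a log2 value of 1.71 (SE 0.32, adjusted p 0.000566), Dsg2 by 1.35 (SE 0.41, adjusted p 0.0327) and Dsc3 by 1.47 (SE 0.43, adjusted p 0.0252), and Dsg3 rose from 0 counts (adjusted p 0.000294). Without libraries 1 and 2 of both batch B groups only Dsp (1.42, adjusted p 0.0445) and Dsg3 (adjusted p 0.00290) were called, with Dsg2 at 0.93 (adjusted p 0.393) and Dsc3 at 0.15 (adjusted p 0.924). Dsg2 missed the call under total-count scaling (adjusted p 0.0545) and without any of Sox2-negative libraries 1 and 2 of batch A or 1, 2 and 4 of batch B (adjusted p 0.0519 to 0.126). Dsc3 missed it with limma-voom, and without library 1 or 2 of batch B (adjusted p 0.172 and 0.0843). Of 13 epithelial markers 7 were also called higher in batch B, summing to 204 to 302 CPM in batch A and 506 to 552 CPM in batch B. All 8 endothelial markers were called lower, summing to 1139.7 to 1488 CPM and 286 to 428 CPM, and 7 of 10 leukocyte markers, summing to 3350.4 to 3723 CPM and 634.5 to 736 CPM. Of 7 erythroid markers 5 were called higher, summing to 985 to 1188 CPM and 53611 to 62038 CPM. No marker of these 4 lists was at 0 in a whole Sox2-negative group, and their part in the desmosome differences was not tested.

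The difference between populations was itself compared between the batches. Of the 10 members only Dsg3 was called, against 7.04% of genes, with a log2 interaction of -4.68 (SE 1.16, adjusted p 0.0147). That size depends on how 0 counts are fitted. The lower limit of 4.24-fold in batch A allows 3 counts in a single library, though all 6 libraries had 0. It is therefore loose, and cannot be used to order batch A against the fitted 5.71-fold of batch B. The call was lost with limma-voom (-1.44, adjusted p 0.446) and without libraries 1 and 2 of both batch B groups (-4.54, adjusted p 0.0530). Pkp2 had an interaction of 2.02 (SE 0.99, adjusted p 0.252) and Pkp1 of 1.41 (SE 0.76, adjusted p 0.316), which were not called.

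Of 11 other desmosome genes, 7 had counts enough to test and 5 rose in Sox2-positive cells over both batches. Dsg1b had the highest log2 fold change, 4.29 (adjusted p 0.000144), on at most 42 counts in a library, followed by Pof1b, an actin-binding protein, at 3.44 (adjusted p 0.000212), and Dsg1a at 2.66 (adjusted p 0.000200). Dsg1a, Dsg1b and Dsg1c are near-identical copies, so reads may be split between them. Ppl, periplakin of the cornified envelope, rose by 1.89 (adjusted p 0.00403), and Pkp4, an armadillo protein also found at adherens junctions, by 0.44 (adjusted p 0.000548). Pkp4 was the member of this list called between batches in Sox2-positive cells, at 1.07 (adjusted p 5.85e-08). Evpl, envoplakin, was at 0.81 (adjusted p 0.117) and Kazn, kazrin, at -0.12 (adjusted p 0.658). Dsg1c, Dsg4, Dsc1 and Cdsn were too low to test, and Dsg4 and Dsc1 had 0 counts in every Sox2-positive library.

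Of 10 adherens junction genes 3 rose and 3 fell, with a median of -0.02, from Nectin4 at 3.93 (adjusted p 1.36e-07) to Nectin1 at -1.18 (adjusted p 0.000331), and Cdh1, E-cadherin, rose by 2.11 (adjusted p 2.41e-07). Of 15 tested tight junction genes 11 rose and 1 fell, with a median of 2.83; the claudin Cldn9 was at 0 in all Sox2-negative libraries, and Tjp1, the scaffold ZO-1, fell by 0.80 (adjusted p 0.0449), a call lost in 24 of the alternatives tried. Of 9 hemidesmosome genes 8 rose, with a median of 2.44, and the linker Plec was lowest at -0.08 (adjusted p 0.598). All 7 tested keratins rose, with a median of 4.27, from Krt15 at 7.42 (adjusted p 9.50e-15) to Krt8 at 3.48 (adjusted p 1.46e-11).

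**Figure D5:**
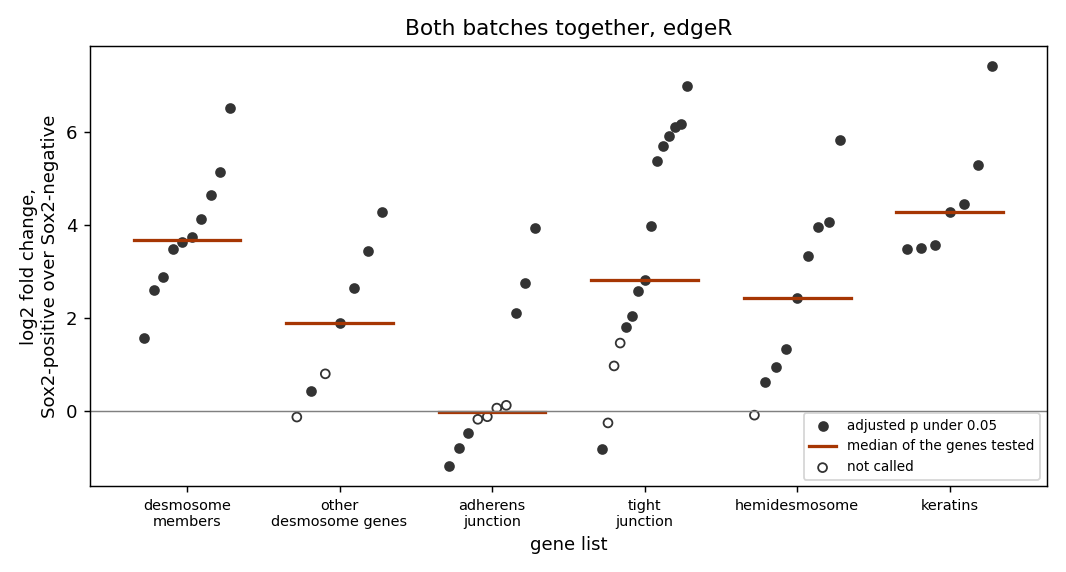
Log2 fold change of Sox2-positive over Sox2-negative cells, over both batches, for each gene of the desmosome, other junction and keratin lists; each point is 1 gene, filled where the adjusted p was under 0.05, and red lines are medians of the genes tested. The desmosome genes have a median of 3.69, against -0.02 for the adherens junction genes.

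Among 14 listed transcription factors that act on epithelial junction genes, 8 rose and 5 fell. Ovol1, a repressor that helps keep epithelial identity, had the highest log2 value, 5.64 (adjusted p 3.97e-07), on 0 counts in batch B Sox2-negative cells. Twist1, a driver of mesenchymal identity, was at 0 counts in all 13 Sox2-positive libraries and averaged 25.6 and 47.7 CPM in the Sox2-negative groups of batches A and B. These 2 genes are the ends of the list and do not stand for the rest. Snai2 averaged 150 and 161 CPM in the Sox2-positive groups of batches A and B, and 27.0 and 27.6 CPM in the Sox2-negative groups. Klf4 averaged 23.9 and 12.4 CPM, and 77.0 and 141 CPM, in the same order.

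The genes most like the desmosome genes were sought among 11092 genes with a mean of at least 10 CPM. The measure was the root mean square difference of centred log2 CPM from the members' median profile over 23 libraries. Dsg3, under that mean, was left out of the profile. Sfn was closest at 0.52, then Isl1 at 0.57, Epcam at 0.59, Krt14 at 0.59 and Prss35 at 0.62. The members themselves ran from Dsg2 at 0.50 to Jup at 1.39 and Dsc2 at 1.56.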

How the data were processed

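Tissue, sort and library steps follow the labels' protocols. The deposited table holds expected counts, estimated by the authors per gene with no scaling; FastQC, Trimmomatic, Salmon and mm10 are named per the submitters' processing notes, and the annotation release and how transcripts were summed are not given in the sources used here. Of 54347 identifiers, 54094 matched GENCODE M21 without version. Values were rounded and tested with edgeR 4.0.16 (R 4.3.3): TMM, the default filterByExpr over the groups, the quasi-likelihood test, two-sided, Benjamini-Hochberg adjustment over all tested genes, called under 0.05, SE as the log2 fold change over the square root of F. Batch was a term over both batches; a model of the 4 group means gave the interaction and the batch differences. Scripts were tested on simulated data.

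Alternatives were RLE and total-count scaling, other filters, DESeq2 1.42.0, limma 3.58.1 voom with sample quality weights, a replicate block and left-out libraries. The members and lists were chosen with earlier results of these data known. Named genes were all members, the other listed desmosome genes, Sox2, Epcam and Cdh1, the highest and lowest gene of each other list, and the 5 genes most like the members; 1 gene under this rule is not reported here. Snai2 and Klf4 were named beyond this rule, after the values were seen. The floor is 3 counts, for counting error only. ATAC-seq was not analysed here.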

Additional observations from a re-analysis of the deposited data

Results flagged for a closer look

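In 40 groups of 4 to 7 libraries checked, 1 per gene and group, 2 had a library far from the others, where chance gives about 1 in 20. Perp reached 121.2 CPM in batch B Sox2-negative library 3, and the next library had 57.2 CPM. Pkp2 reached 1.07 CPM in batch A Sox2-negative library 2, which is 5 counts. Dsg3 differed between the batches in its difference between populations, with a log2 interaction of -4.68, which rests on 0 counts in all 6 batch A Sox2-negative libraries.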

How the results depend on the processing

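All 10 desmosome genes stayed higher in Sox2-positive cells over both batches, past the threshold, in 310 of 310 combinations of gene and alternative. The batch results were less stable; the cause was not tested. The interaction had 1 member called, 0 with limma-voom (always with sample quality weights), 0 with the replicate block and 0 without libraries 1 and 2 of both batch B groups, and 1 to 2 when 1 library was left out. In Sox2-positive cells 3 members were called and 7 with limma-voom. In Sox2-negative cells 4 were called, but 2 without those libraries and 2 to 4 when 1 library was left out. Without those libraries, batch B Sox2-negative cells keep only libraries 3 and 4. Fewer libraries may thus also cost calls, which was not tested. Of the paralog ratios 5 passed, 8 with 0.1 added to counts and 3 to 6 when 1 library was left out, where fewer libraries also limit the exact p. The count was 3 with the replicate block and 2 without those libraries, but neither setting can test the 2 batch B ratios. The block has only 4 pairs in batch B, and without those libraries its Sox2-negative cells keep 2. Both are too few for an exact p that passes. The 3 Sox2-positive ratios compare batches, so the block left their p unchanged.

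Small differences changed sign. Without libraries 1 and 2 of both batch B groups, Pkp1 was at -0.58 between batches in Sox2-negative cells, and the interaction was 0.054 for Pkp3 and 0.47 for Dsc3. With limma-voom Dsc2 had an interaction of -1.25 and a Sox2-negative difference of 1.77, and with the replicate block an interaction of -0.19. Leaving out 1 library gave Sox2-negative differences of -0.19 to 0.11 for Jup, -0.045 to 1.04 for Pkp1, -0.84 to 0.72 for Pkp2 and -0.44 to 1.31 for Dsc2, and interactions of -0.47 to 0.021 for Perp, -0.60 to 0.10 for Pkp3 and -0.79 to 0.97 for Dsc2. Between populations Kazn was at 0.0030 and Plec at 0.038 with total-count scaling, Plec at 0.036 with limma-voom, and leaving out 1 library gave -0.23 to 0.029 for Kazn and -0.10 to 0.023 for Plec.

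Over all genes, the interaction called 1210 genes, 557 with the replicate block and 481 without those libraries; Sox2-positive cells 1785 between batches, 3313 with limma-voom and 1159 without those libraries; Sox2-negative cells 1924 and 754 without those libraries. Total-count scaling called 666 of 1880 higher against 833 of 1785 in Sox2-positive cells and 661 of 2049 against 1005 of 1924 in Sox2-negative cells, and moved the median of all genes from -0.12 to 0.003 between populations and from -0.004 to -0.15 between batches in Sox2-negative cells. Same-numbered libraries had correlations of -0.0212 to 0.0444, best with their own number in 1 of 10 pairs, so the numbers were not taken as pairs; batch B Sox2-negative libraries 1 and 2 correlated best with Sox2-positive libraries 2 and 1. The replicate block left all 10 members called over both batches. Depth limits Pkp2 and Dsg3 in Sox2-negative cells.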
